A study of Mus musculus with 10 samples.

Results

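The 10 genes described here encode transcription factors of neural and glial lineages: Olig1 and Olig2 of the basic helix-loop-helix class, and Sox1, Sox2, Sox3, Sox4, Sox8, Sox9, Sox10 and Sox11 of the SOX class. They were chosen by symbol from the 50559 genes in the count files, and all 10 were among the 29952 genes that passed the filter on low counts. RNA from formalin-fixed, paraffin-embedded (FFPE) mouse tissue was sequenced in 10 libraries. Of these, 4 came from biopsy punches of MYC/SMARCA4 tumors, which grew in the cerebella of CD1nu/nu recipients aged 112, 96, 89 and 79 days (tumors 1 to 4). The transplanted cells were granule cell precursors taken from Math1-creERT2::Smarca4fl/fl pups about a week old, after tamoxifen at P3, and transduced with a lentivirus for MYC overexpression. A further 3 libraries came from tumors of the SHH medulloblastoma (SHH MB) model Math1-cre::Smofl/wt at 7 days of age. The last 3 came from whole P7 cerebella of Math1-creERT2::Smarca4fl/fl mice given 0.4 mg tamoxifen at P3, so the P7 control carried the same Smarca4 deletion as the transplanted cells. In both lines, the promoter of Math1 (Atoh1), a granule cell precursor gene, drives the recombinase, and other cell types keep Smarca4 or wild-type Smo. Host cells of the recipient can be part of a tumor punch. The recipients were older than the 7-day mice of the other groups, so age and model cannot be told apart. Ages differ between the 4 tumors, but nothing in the labels says that the libraries of the other groups came from separate animals, and p-values measure the spread between these libraries.

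OLIG proteins bind E-boxes as dimers and specify oligodendrocyte precursors. SOX proteins bind a short A/T-rich site through an HMG box, and members of a subfamily have closely related sequences. SOXB1 factors (Sox1, Sox2, Sox3) maintain neural progenitors, SOXC factors (Sox4, Sox11) act in committed neuronal precursors, and SOXE factors (Sox8, Sox9, Sox10) act in glia and in the neural crest. In the cerebellum, Sox9 marks astrocytes and Bergmann glia, Sox10 and the OLIG genes mark the oligodendrocyte lineage, and granule cell precursors depend on Sonic hedgehog (SHH) signaling.

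The files named the 10 genes by symbol only, and positions and exon lengths were taken from GENCODE vM39 on GRCm39, the build of the alignment. Olig2 (chr16:91019435-91025567) and Olig1 (chr16:91066660-91068821) lie on the plus strand, 41093 bases apart. Merging of overlapping exons left no gap in Olig1, Sox1 (chr8:12445295-12450126), Sox2 (chr3:34704554-34706610), Sox3 (chrX:59934972-59937036), Sox4 (chr13:29132902-29137696), Sox8 (chr17:25784634-25789726) and Sox11 (chr12:27384263-27392573). A merged exon can cover introns of some transcripts, so this does not give the exon number of any transcript. The merged exons number 4 in Olig2, 3 in Sox9 (chr11:112673009-112678586) and 5 in Sox10 (chr15:79039108-79049469). Sox3, Sox4, Sox8, Sox10 and Sox11 lie on the minus strand. An exon of another gene on the opposite strand covers 59.9% of the exon bases of Sox2 (Gm64654), 18.9% of Sox4 (A330102I10Rik), 17.5% of Sox3 (Gm14662), 13.0% of Sox9 (BC006965) and 6.89% of Olig2 (Gm49614). Olig1 shares 10.5% of its exon bases with Gm41492 and 7.26% with Gm15966. Whether reads were counted by strand is not given in the sources used here, and reads of these genes cannot be told from those of their partners. Sox2 and Sox1 also lie within the spans of Sox2ot and Sox1ot, with no exon bases shared.

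Promoter windows of 6 members were given by RefSeq (250 bases before to 50 after the start, from GRCm38.p6) and each matched 1 place in GRCm39. The RefSeq start of Olig2 lies inside the gene as GENCODE draws it, and that of Sox2 lies 410 bases before it. Short stretches are shown because Olig2 and Sox8, the members that were lower in the tumors against both other groups in nearly all fits, hold different motifs, while a CCAAT box recurs among members of several subfamilies. Capitals mark CATTGT (a form of the SOX site) in Olig2, CACGTG (the E-box preferred by MYC and its partner MAX) in Sox8, and CCAAT or its reverse complement ATTGG in the others.
Olig2, SOX site, chr16:91022358-91022387, plus strand: ccaggaaaagcaCATTGTtcccgccccccg
Sox8, E-box, chr17:25789795-25789824, minus strand: gggcgcctggccCACGTGgtacggagggtg
Olig2, CCAAT box, chr16:91022223-91022252, plus strand: ccgcgggcgcccATTGGctgtgtgctgaga
Sox2, CCAAT box, chr3:34704086-34704115, plus strand: cggcgctcgctgATTGGccgccggaaaccc
Sox4, CCAAT box, chr13:29137712-29137741, minus strand: ttacagcggctgATTGGctgtctgagaaag
Sox11, CCAAT box, chr12:27392760-27392789, minus strand: tcgggaccagccATTGGctggtgggagtag
Both strands were searched. CACGTG was in 7.15% of all 32851 windows of this kind, CATTGT in 12.6% and CCAAT in 37.4%. The GLI site GACCACCCA, which SHH-responsive factors bind, was in none of the 6 windows and in 0.253% of all windows. CCAAT was also in the window of Sox1 and was added to the search after the windows had been seen. The general E-box CANNTG, which includes CACGTG and is the class of site that OLIG proteins bind, was in the windows of Sox2, Sox4, Sox8 and Sox11 and in 72.3% of all windows. These matches describe the letters of the windows only.

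Library sizes lay between 5663491 and 9352109 counts. Myc, the transduced oncogene, was at 151 to 1574 CPM in the tumors, against 12.9 to 14.2 CPM in P7 cerebella and 33.4 to 45.4 CPM in SHH MB; tumor 1 had the lowest value of the 4. CPM stands here for the usual depth-scaled count after TMM normalization. Smarca4 was at 135 to 242 CPM in the tumors and 219 to 280 CPM in P7 cerebella, and the difference did not pass the test (log2 fold change -0.30, SE 0.28, edgeR adjusted p = 0.495). Against SHH MB Smarca4 was lower (-1.39, adjusted p = 0.0157). A gene-level count also includes exons outside the deleted part and the cells that keep the gene. The SHH targets Gli1, Ptch1 and Hhip and the SHH MB marker Sfrp1 were higher in all SHH MB libraries than in any P7 library. None of them passed the test in the fit of all 10 libraries (edgeR adjusted p = 0.399 for Gli1, 0.0594 for Ptch1, 0.214 for Hhip and 0.108 for Sfrp1). Tumor 1 stood apart from the other tumors. It had the highest share of counts from mitochondrial and ribosomal RNA-like genes (7.34%, against 2.53% to 3.72%) and the highest summed level of the mature granule neuron, Purkinje and myelin lists. Results below are therefore also given without it where a count of calls changed. In bulk tissue, fewer cells of a type and less RNA per cell cannot be told apart.

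Against P7 cerebella, 3 of the 10 genes were lower in MYC/SMARCA4 tumors at an adjusted p of 0.05: Olig2, Sox8 and Sox9. Of all genes tested, 2.27% were lower at this threshold and 3.99% were higher, and no member was higher. The median log2 fold change of the 10 members was -1.07, and that of all genes tested was -0.05. The study's methods set stricter thresholds, 2.5 or more on the log2 scale in either direction together with adjusted p not above 0.01. No member passed them here, and 0.29% of all genes did. Without tumor 1, 5 members were lower (Olig1, Olig2, Sox8, Sox9 and Sox10), beside 6.11% of all genes. Without tumor 3 the same 5 passed, but so did 22.8% of all genes. Only Sox8 passed without P7 library 2, beside 0.5% of all genes, and in a fit of the 7 libraries of these groups alone, beside 0.607%.

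Against SHH MB, 4 members were lower in the tumors (Olig1, Olig2, Sox8 and Sox9) and none was higher. The shares of all genes were 2.26% lower and 2.43% higher. Olig2, Sox8 and Sox9 also passed the study's thresholds, as did 0.601% of all genes. Over the alternatives, 2 to 4 members passed them, with 2 by limma on the VST values, in the fit of these groups alone, with the replicate block and without any 1 SHH MB library. The share of all genes past these thresholds was computed for the fit of all libraries only, so these counts have no background beside them. The median of the members was -1.23 on the log2 scale, and that of all genes was 0.01. Without tumor 1, Sox10 was added and 5 members were lower, beside 4.75% of all genes. The same 5 passed without tumor 3, and without tumor 4 there were 5 with Sox1 in place of Sox10. Genes called in either direction numbered 6729 of 28724 tested without tumor 3, and 1253 without tumor 4. They numbered 1403 of 29952 in the fit of all libraries. The share lower alone was not computed without tumor 3 or tumor 4. The count of members was 3 without tumor 2, without any 1 SHH MB library and in the fit of these groups alone. In those fits 311 to 921 genes were called in either direction, fewer than the 1403 with all libraries. SHH MB libraries served in this comparison and in the next, and P7 libraries in the first and the third, so the comparisons are not independent.

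Between SHH MB and P7 cerebella, Olig2 was higher in SHH MB and no other member passed. Of all genes, 0.177% were higher and 0.0467% lower, and 0.01% passed the study's thresholds, with no member among them. This fit took its spread from all 10 libraries, of which the tumors varied most. In a fit of the 6 libraries of these 2 groups alone, 6 members were higher in SHH MB (Olig1, Olig2, Sox1, Sox4, Sox8 and Sox9), beside 13.4% of all genes.

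**Figure D1:**
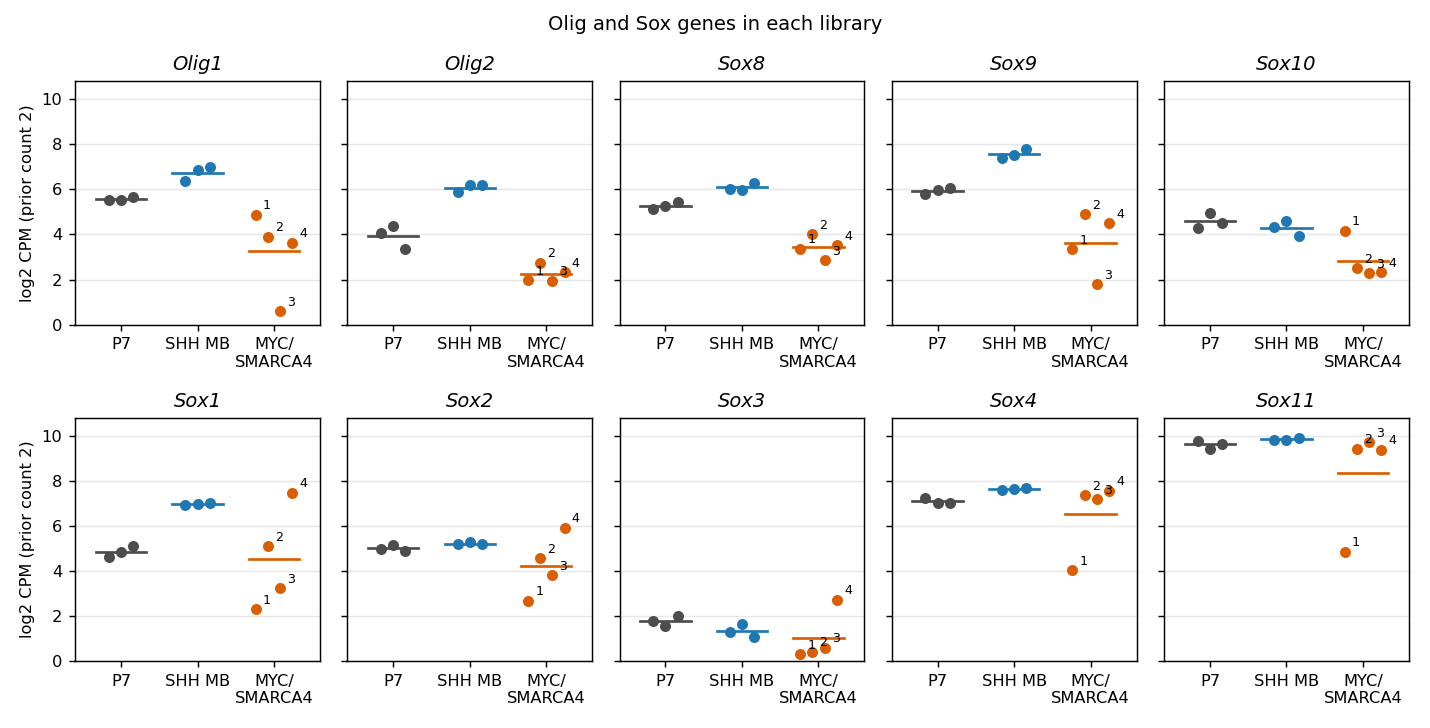
Level of each gene in each library (y axis: log2 CPM with a prior count of 2; x axis: group; points: libraries, with tumors numbered 1 to 4; lines: group means). Olig2, Sox8 and Sox9 lie below both other groups in all 4 tumors, as does Olig1, whereas Sox4 and Sox11 are far lower in tumor 1 than in tumors 2 to 4.

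**Figure D2:**
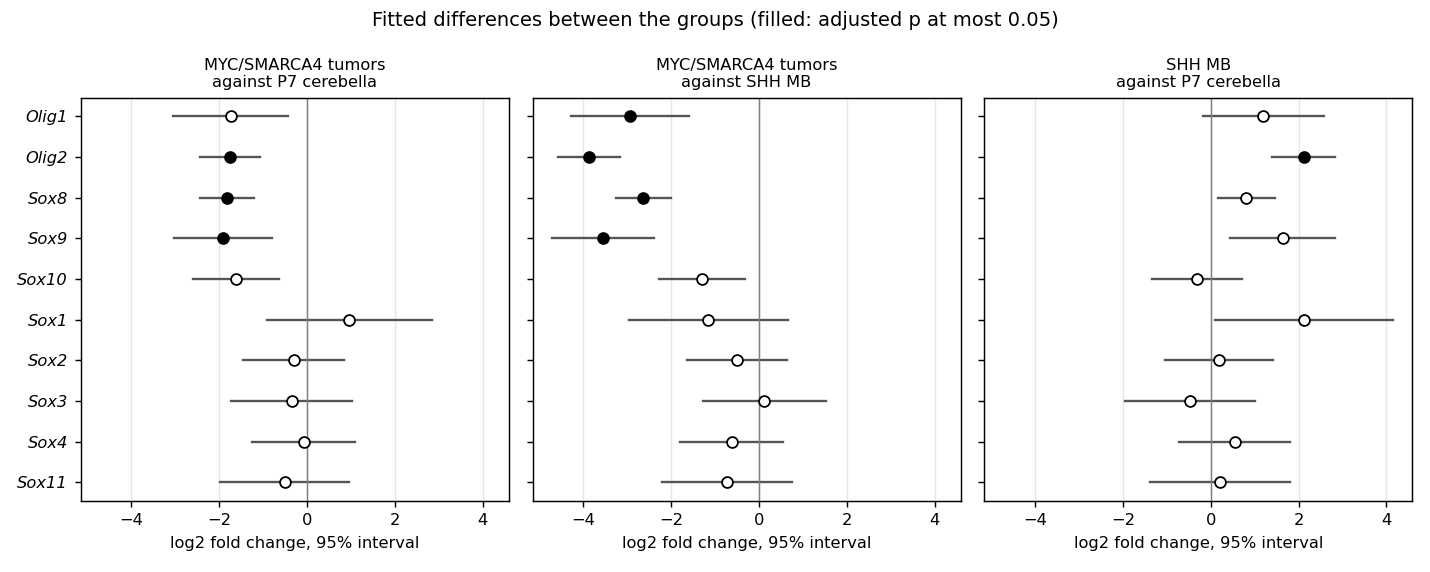
Fitted log2 fold change of each gene with its 95% interval in the 3 comparisons (edgeR, all 10 libraries; filled points: adjusted p at most 0.05 over all genes). The filled points are Olig2, Sox8 and Sox9 on the left, Olig1, Olig2, Sox8 and Sox9 in the middle, and Olig2 on the right.

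Olig2, which specifies the oligodendrocyte lineage and is also made by subsets of proliferating progenitors, was the member with the largest fitted difference between the models (Sox9 had the largest by limma and with the replicate block). It was at 58.0, 73.2 and 72.3 CPM in SHH MB, at 16.3, 20.6 and 9.90 CPM in P7 cerebella and at 3.69, 6.42, 3.61 and 4.72 CPM in tumors 1 to 4. The 3 groups did not overlap, with SHH MB highest and the tumors lowest. Raw counts were 15 to 39 in the tumors, above the floor of 3 counts but few enough that counting error is a part of their spread. Olig2 was 14.6-fold lower in the tumors than in SHH MB (log2 fold change -3.87, SE 0.32, edgeR adjusted p = 6.26e-05; exact two-sided permutation test p = 0.0286, the smallest that 4 against 3 libraries allow). It was 3.38-fold lower than in P7 cerebella (log2 fold change -1.76, SE 0.31, adjusted p = 0.0105). This call was lost without P7 library 2 (adjusted p = 0.0734) and in the fit of these 2 groups alone (0.0666), and over all 19 alternatives the adjusted p lay between 0.000173 and 0.0734. Olig2 was 4.34-fold higher in SHH MB than in P7 cerebella (log2 fold change 2.12, SE 0.33, adjusted p = 0.0267). With any 1 of these 6 libraries left out, that call was lost (edgeR adjusted p from 0.107 to 0.239, with log2 fold changes from 1.89 to 2.36). Almost no gene passed in those fits: 0 to 6 of all genes were called in either direction, against 67 with all libraries. The loss is therefore not particular to Olig2. The exact permutation test of 3 against 3 libraries cannot go below 0.10.

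Olig1, the paralog that acts later in oligodendrocyte maturation, had the same order of groups. Its level was 82.8, 115 and 127 CPM in SHH MB, 45.5, 45.8 and 50.2 CPM in P7 cerebella, and 29.2, 14.6, 1.25 and 12.2 CPM in tumors 1 to 4. All tumors were below all other libraries, and tumor 3 (9 counts) was far below the other tumors. Olig1 was 7.65-fold lower in the tumors than in SHH MB (log2 fold change -2.94, SE 0.62, edgeR adjusted p = 0.0190). Without tumor 2 the adjusted p was 0.0507, without any 1 SHH MB library it was 0.0542 to 0.0912, and in the fit of these groups alone it was 0.0764. Against P7 cerebella the value was -1.74 (SE 0.60, adjusted p = 0.1), and it passed without tumor 1 (-2.45, adjusted p = 0.00731) or tumor 3 (-1.55, adjusted p = 0.00490). The difference between SHH MB and P7 cerebella was 1.20 (SE 0.64, adjusted p = 0.641; 1.24e-07 with the tumors left out of the fit).

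Of the SOXE genes, Sox8, which overlaps in function with Sox9 and Sox10 in glia, had the smallest spread among tumors. It was at 35.2, 38.2 and 43.0 CPM in P7 cerebella, at 63.7, 63.0 and 77.7 CPM in SHH MB and at 10.1, 15.9, 6.94 and 11.1 CPM in tumors 1 to 4. No group overlapped another. Sox8 was 3.52-fold lower in the tumors than in P7 cerebella (log2 fold change -1.82, SE 0.28, edgeR adjusted p = 0.00529) and 6.19-fold lower than in SHH MB (-2.63, SE 0.29, adjusted p = 0.000307). Both calls held in all 19 alternatives, with adjusted p of at most 0.0388 and 0.00564. Between SHH MB and P7 cerebella the difference was 0.81 (SE 0.30, adjusted p = 0.439; 2.62e-05 with the tumors left out of the fit).

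Sox9, a factor of astrocytes, Bergmann glia and glial progenitors, was at 55.5, 63.0 and 66.1 CPM in P7 cerebella, at 170, 183 and 220 CPM in SHH MB and at 9.83, 29.6, 3.19 and 22.5 CPM in tumors 1 to 4. Again the groups did not overlap. Tumors 1 and 3 were lower than tumors 2 and 4. The difference from SHH MB was 11.7-fold (log2 fold change -3.55, SE 0.54, edgeR adjusted p = 0.00294) and held in all alternatives. The difference from P7 cerebella was 3.77-fold (log2 fold change -1.91, SE 0.51, adjusted p = 0.0463). It lay close to the threshold and did not pass in 10 of 19 alternatives, among them those without tumor 4 (0.0680), without any 1 P7 library (0.118 to 0.165) or without any 1 SHH MB library (0.0832 to 0.0847); its direction did not change. Between SHH MB and P7 cerebella the value was 1.63 (SE 0.55, adjusted p = 0.397; 1.03e-10 with the tumors left out of the fit).

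Sox10, the oligodendrocyte and Schwann cell factor that activates myelin genes, did not follow Sox8 and Sox9 in SHH MB. It was at 19.5, 30.9 and 22.8 CPM in P7 cerebella and at 19.7, 24.0 and 14.8 CPM in SHH MB, with overlap of the groups, and at 17.7, 5.35, 4.58 and 4.72 CPM in tumors 1 to 4. Tumor 1 was within the SHH MB range and below all P7 libraries, and tumors 2 to 4 lay close together below both groups. With all libraries in the fit, the differences from P7 cerebella (log2 fold change -1.62, SE 0.45, edgeR adjusted p = 0.0516) and from SHH MB (-1.3, SE 0.45, adjusted p = 0.127) did not pass. Without tumor 1 both did (-2.41 with an adjusted p of 0.000156, and -2.1 with 0.000406), and without tumor 3 both did as well (adjusted p of 0.0147 and 0.0428). With tumor 1 kept, the difference from P7 cerebella also passed by DESeq2 (0.0169), with no filter (0.0478) and among genes with at least 10 counts in every library (0.0176), and under that last filter so did the difference from SHH MB (0.0433). Myelin genes, which Sox10 drives in oligodendrocytes, were also highest in tumor 1: the 15 genes of the myelin list summed to 4224 CPM there and to 156 to 906 CPM in tumors 2 to 4. The part of mature oligodendrocytes in the Sox10 level was not tested.

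Among SOXB1 genes, none passed between the tumors and another group, and the tumors were spread widely. Sox1, a marker of neural progenitors, was at 4.67, 34.1, 9.16 and 177 CPM in tumors 1 to 4, at 24.5, 28.3 and 34.5 CPM in P7 cerebella and at 124, 127 and 128 CPM in SHH MB. Tumor 4 was above all SHH MB libraries, tumor 2 was in the P7 range, and tumors 1 and 3 were below it. The log2 fold change from P7 cerebella was 0.96 (SE 0.87, edgeR adjusted p = 0.479), although the mean of log2 CPM was lower in the tumors (4.53 ± 2.28, SD, n = 4, against 4.86 ± 0.25, n = 3), and without tumor 4 it was -0.87. Against SHH MB the value was -1.16 (SE 0.84, adjusted p = 0.478); without tumor 4 Sox1 was lower (-2.98, adjusted p = 0.0201). Between SHH MB and P7 cerebella it was 2.12 (SE 0.94, adjusted p = 0.547; 2.76e-12 with the tumors left out of the fit).

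Sox2, a stem cell factor of neural progenitors and Bergmann glia, was at 6.14, 23.4, 13.9 and 60.2 CPM in tumors 1 to 4. It varied little outside them, with 31.8, 35.3 and 29.7 CPM in P7 cerebella and 36.1, 38.4 and 36.2 CPM in SHH MB. The log2 fold changes were -0.31 against P7 cerebella (SE 0.53, edgeR adjusted p = 0.719) and -0.50 against SHH MB (SE 0.53, adjusted p = 0.643), with 95% intervals of -1.45 to 0.84 and -1.64 to 0.65. Sox3, the X-linked member, had the fewest reads of the 10 genes outside the tumors. Its counts were 4, 6, 9 and 53 in tumors 1 to 4, 31, 25 and 27 in P7 cerebella and 14, 25 and 13 in SHH MB. Tumors 1 to 3 were below all other libraries and tumor 4 above them, and the fitted differences of the tumors (-0.35 from P7 cerebella, SE 0.64, and 0.12 from SHH MB, SE 0.65) did not pass (edgeR adjusted p = 0.73 and 0.938). Tumor 4 was thus the highest tumor for all 3 SOXB1 genes.

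The SOXC genes, which act in neuronal precursors leaving the cell cycle, lay near the P7 range in tumors 2 to 4. Sox11 was at 689, 837 and 666 CPM in tumors 2, 3 and 4, at 883, 691 and 803 CPM in P7 cerebella and at 905, 903 and 952 CPM in SHH MB. In tumor 1 it was at 29 CPM. Sox4 was at 166, 144 and 189 CPM in tumors 2, 3 and 4, at 153, 129 and 128 CPM in P7 cerebella and at 191, 200 and 206 CPM in SHH MB, whereas tumor 1 had 16.2 CPM. Neither gene passed against P7 cerebella (Sox11 -0.51, SE 0.68; Sox4 -0.08, SE 0.54; edgeR adjusted p = 0.635 and 0.932) or against SHH MB (Sox11 -0.73, SE 0.68; Sox4 -0.62, SE 0.54; adjusted p = 0.595 and 0.562). The sign of Sox4 against P7 cerebella turned without tumor 1 (0.19). All 4 tumors were below all SHH MB libraries for both genes. Between SHH MB and P7 cerebella, Sox4 passed only with the tumors left out of the fit (0.56, adjusted p = 0.000532; 0.54, SE 0.58, with an adjusted p of 0.861, in the fit of all libraries).

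Levels of different genes were compared as CPM per kilobase (kb) of merged exons. Where merged exons cover introns, the level per kb of that gene, and its share below, can be too low. In P7 cerebella, Sox11 was highest at 95.3 ± 11.6 (SD, n = 3), followed by Sox4 (28.5 ± 2.90), Olig1 (21.8 ± 1.23), Sox2 (15.7 ± 1.37), Sox9 (14.7 ± 1.3), Sox8 (7.62 ± 0.78), Sox10 (7.31 ± 1.76), Sox1 (6.02 ± 1.05), Olig2 (3.77 ± 1.3) and Sox3 (1.56 ± 0.27). Libraries of neighbours in this order overlapped for Sox2 and Sox9, for Sox8 and Sox10, and for Sox10 and Sox1. In SHH MB the order was Sox11 (111 ± 3.33), Olig1 (50.1 ± 10.5), Sox9 (45.7 ± 6.2), Sox4 (41.5 ± 1.67), Sox1 (26.1 ± 0.46), Sox2 (17.9 ± 0.65), Olig2 (16.4 ± 2.05), Sox8 (13.4 ± 1.63), Sox10 (5.85 ± 1.38) and Sox3 (1.12 ± 0.27). There, Olig1, Sox9 and Sox4 overlapped in turn, as did Sox2, Olig2 and Sox8. In the tumors the order of means was Sox11 (66.8 ± 43.2, n = 4), Sox4 (26.9 ± 16.1), Sox2 (12.6 ± 11.6), Sox1 (11.6 ± 16.9), Olig1 (6.63 ± 5.33), Sox9 (3.90 ± 2.87), Sox10 (2.43 ± 1.92), Sox8 (2.16 ± 0.73), Sox3 (1.18 ± 1.29) and Olig2 (1.11 ± 0.32), and each gene overlapped the next. Sox11 was first in all 3 groups, while Olig1 and Sox9 stood above Sox1 and Sox2 in SHH MB and below them in the mean of the tumors.

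Within a library, a share of the counts per kb of a subfamily does not depend on scaling between libraries. In SHH MB, Sox1 made up 56.7% to 58.9% of SOXB1, against 23.0% to 30.5% in P7 cerebella and 20.5% to 53.1% in the tumors. Sox9 made up 68.8% to 72.8% of SOXE in SHH MB, 47.4% to 51.1% in P7 cerebella and 24.4%, 60.02%, 21.8% and 59.94% in tumors 1 to 4. Sox10 was 55.1% and 39.3% of SOXE in tumors 1 and 3, but 13.6% and 15.8% in tumors 2 and 4, which placed tumors 1 and 3 above and tumors 2 and 4 below the P7 range of 22.0% to 29.1%. Olig2 was 60.1% of the OLIG pair in tumor 3, the library with the fewest Olig1 counts, and 6.18% to 26.8% in all other libraries. Sox4 was 49.2% of SOXC in tumor 1 and 21.6% to 33% elsewhere. SHH MB and P7 cerebella did not overlap in the share of any of the 10 genes, at an exact permutation p of 0.1, the smallest for 3 against 3 libraries. These are not 10 separate results, because shares within a subfamily sum to the whole. Those of the OLIG pair mirror each other, as do those of SOXC. No shares of other genes were computed for comparison. Of 30 tests of shares, mirrored ones included, none passed (smallest exact permutation p = 0.0571, Benjamini-Hochberg adjusted 0.231).

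**Figure D3:**
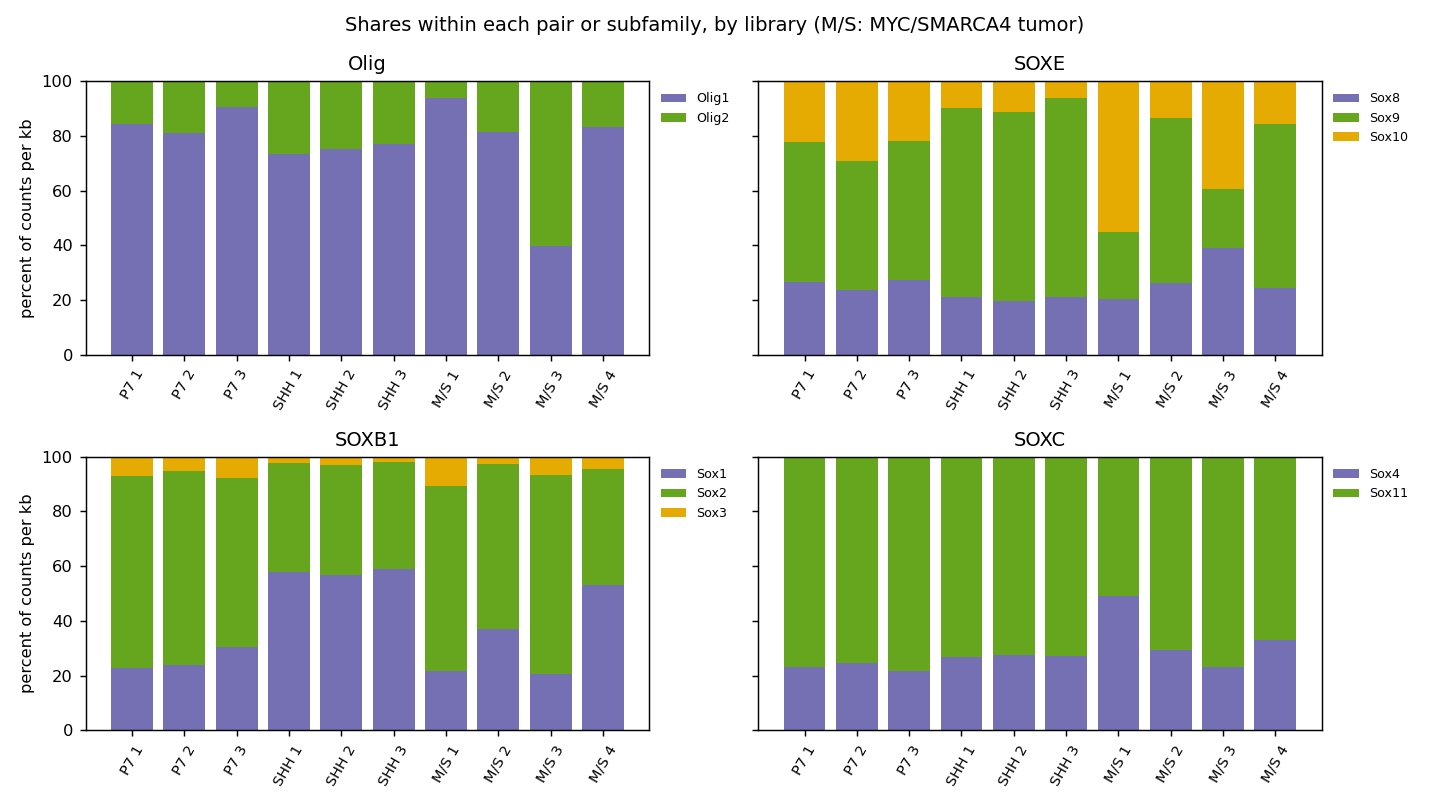
Share of each gene in the counts per kb of its pair or subfamily, for each library (y axis: percent; stacked bars sum to 100; M/S: MYC/SMARCA4 tumor). Shares are alike among the 3 libraries of P7 cerebella and of SHH MB, whereas Sox10 takes 55.1% and 39.3% of SOXE in tumors 1 and 3 and Olig2 takes 60.1% of the pair in tumor 3.

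Genes around the lineage factors were counted in lists. Of 12 oligodendrocyte precursor markers, 5 were lower in the tumors than in P7 cerebella, 4 were lower than in SHH MB and none was higher (medians -0.99 and -1.02; all genes -0.05 and 0.01). They included the receptor Gpr17 (-3.67 and -2.71), the channel subunit gene Cacng4 (-3.04 and -2.82), C1ql1 (-2.20 and -3.91) and the NG2 proteoglycan gene Cspg4 (-1.02 and -1.25), all with edgeR adjusted p of at most 0.0412. Pdgfra, the growth factor receptor of these cells, did not pass (-0.57, adjusted p = 0.437, and -0.92, adjusted p = 0.295). The summed level of the list was 244 to 560 CPM in the tumors, 745 to 800 CPM in P7 cerebella and 872 to 960 CPM in SHH MB, with no overlap. None of the 12 passed between SHH MB and P7 cerebella (median -0.06), where Olig2 was called. In that fit of all libraries only 0.177% of all genes were higher and 0.0467% lower. The 2 markers with the lowest p were C1ql1 (1.71, edgeR adjusted p = 0.0747) and Gpr17 (-0.95, adjusted p = 0.474), with opposite signs. The list was not counted in the fit of these 2 groups alone. Of 15 other regulators of oligodendrocyte development, 2 were lower in the tumors in each comparison: the repressor Nkx2-2 in both (-2.26 and -1.94), with Zfp488 (-2.09) against P7 cerebella and Etv5 (-2.82) against SHH MB. Olig3, the paralog of Olig1 and Olig2 in this list, had fitted values of the opposite sign that did not pass (3.98, SE 1.18, adjusted p = 0.0635, and 3.30, SE 1.14, adjusted p = 0.124). Of the 15 myelin genes, none passed against P7 cerebella and 1, Mal, was higher than in SHH MB (4.31, adjusted p = 0.0178), and their medians were 0.22 and 1.51. These values include tumor 1, which had 4224 CPM for the list. Tumors 2 to 4 had 906, 156 and 488 CPM, all below the 1026 to 1203 CPM of P7 cerebella, and SHH MB had 152 to 437 CPM.

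Of 15 astrocyte and Bergmann glia genes, 4 were lower in the tumors than in P7 cerebella, namely Fabp7 (-4.14), the water channel gene Aqp4 (-3.01), Aldh1l1 (-2.22) and the Bergmann glia marker Gdf10 (-2.07). Against SHH MB, Fabp7 (-3.96) and Aldh1l1 (-1.81) were lower, but Aldoc (2.76) and Gjb6 (2.51) were higher. The list summed to 651 CPM in tumor 3, where Sox9 was lowest, and to 1797 to 3802 CPM in the other tumors, against 3409 to 3554 CPM in P7 cerebella. Of 15 stem and progenitor genes, 1 was lower than in P7 cerebella (Pou3f3, -1.87) and 3 were lower than in SHH MB (Pou3f3, -2.28; Nes, -2.49; Hes1, -2.02). Hes1, a Notch target, was also higher in SHH MB than in P7 cerebella (2.1, adjusted p = 0.0393). Of 11 tested Schwann cell and neural crest genes, 3 and 2 were lower in the tumors, among them Ngfr (-2.81 and -3.48) and Ednrb (-3.03 and -2.30).

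Of 11 other Sox genes, 1 was lower in the tumors than in P7 cerebella (Sox5, -1.27) and 3 were lower than in SHH MB (Sox5, -1.64; Sox7, -1.63; Sox18, -3.40). Sox18, an endothelial factor, was higher in SHH MB than in P7 cerebella (2.78, adjusted p = 0.0133). None of the 11 was higher in the tumors. Of 10 endothelial genes, none passed against P7 cerebella and 1 (Kdr, -1.12) was lower than in SHH MB.

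Neuronal lists differed in direction. Of 15 early neuronal genes, 4 were lower in the tumors in both comparisons: Dcx (-4.15 and -3.98), Nhlh1 (-3.11 and -3.89), Nhlh2 (-2.96 and -3.60) and Tubb3 (-1.56 and -1.08). Sox4 and Sox11, which are expressed in such precursors, did not pass. Of 11 granule cell precursor genes, 3 were lower than in P7 cerebella and 5 were lower than in SHH MB, including Barhl1 (-3.16 and -4.78), Sfrp1 (-4.20 and -6.05) and Mycn (-3.74 and -5.01). Of 10 mature granule neuron genes, 4 were higher than in P7 cerebella and 6 higher than in SHH MB, among them Gabra6 (3.41 and 5.84) and Cbln3 (4.27 and 6.09). Of 10 Purkinje genes, none passed against P7 cerebella, and 3 were higher than in SHH MB (Ppp1r17, 5.02; Pvalb, 4.77; Itpr1, 3.14). These calls include tumor 1. The mature granule neuron list summed to 5960 CPM in tumor 1, 2360 in tumor 2, 323 in tumor 3 and 1469 in tumor 4, and the Purkinje list to 12933, 3051, 401 and 2151 CPM. In P7 cerebella the 2 lists summed to 1007 to 1384 and to 1628 to 1789 CPM. In SHH MB they summed to 353 to 454 and to 470 to 798 CPM. Tumor 1, which had the least Sox4 and Sox11, was thus the highest for both lists and tumor 3 the lowest. The part of host tissue in these levels was not tested. Of 10 choroid plexus genes, 2 and 3 were lower in the tumors, with Ttr at 0.178 to 3.05 CPM there and 228 to 1182 CPM elsewhere. No gene of the lists of 10 microglia and 10 fibroblast or meninges genes passed in any comparison.

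**Figure D4:**
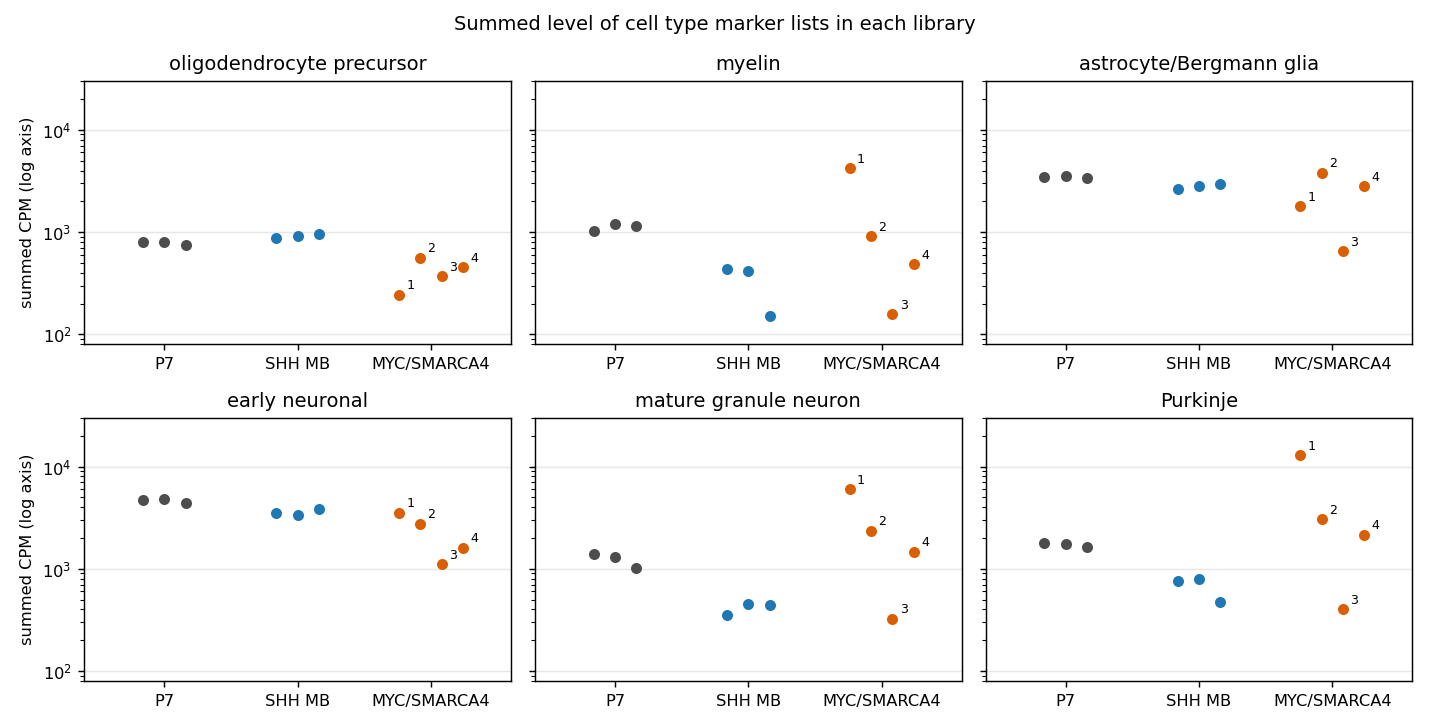
Summed CPM of 6 cell type marker lists in each library (y axis: log scale; x axis: group; points: libraries, with tumors numbered). Tumor 1 is highest for the myelin, mature granule neuron and Purkinje lists and lowest for oligodendrocyte precursor markers.

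For each member, the genes with the nearest pattern over the 10 libraries were found by the root mean square (RMS) difference of log2 CPM. Each gene was centred on its mean, and the 19331 candidates were tested genes other than the 10 members. The nearest to Olig2 were Cbfa2t3 (0.38), the precursor marker C1ql1 (0.39) and Efs (0.40), and those to Olig1 were Sema7a (0.54), Apba2 (0.61) and Zfp711 (0.61). Sox8 was nearest to Dusp4 (0.18), Vps37b (0.19) and Mmp14 (0.26), and Sox9 to the long noncoding RNA Miat (0.46), the receptor Egfr (0.54) and Fam111a (0.54). Sox10 was nearest to Shd (0.30), Gjd2 (0.32) and Vopp1 (0.33). Sox1 was nearest to the SHH target Hhip (0.58), Pdzrn4 (0.58) and Tox3 (0.64). The gene nearest to Sox2 was Sox1ot, the transcript that spans Sox1 (0.13), followed by Gpr26 (0.27) and Fam126a (0.28). Sox3 was nearest to Bmpr1b (0.31), Tox (0.33) and Cbs (0.36). Sox4 was nearest to Cpsf4l (0.17) and the linker histone gene H1f5 (0.19), with Ppp1r14b (0.19), and Sox11 to the histone gene H2ac15 (0.22), Tnfaip8 (0.30) and Marcksl1 (0.31). For comparison, the SD of the members over the 10 libraries lay between 0.77 (Sox3) and 1.92 (Sox9) on the log2 scale. These distances describe 10 libraries of 3 groups and share the scaling of each library.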

How the data were processed

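Gene expression was measured by total RNA sequencing (RiboCop depletion, CORALL library kit). According to the submitters' processing notes and the study's methods, the authors ran FastQC (0.73), Trimmomatic (0.38.1), STAR (2.7.8a, GRCm39), featureCounts (2.0.1) and DESeq2 (2.11.40.7). The annotation and the use of strand or of molecular identifiers in counting are not given in the sources used here. The authors deposited raw counts per gene for each library and log2-scale VST values for all libraries. Genes were filtered with filterByExpr and tested with edgeR (4.0.16, TMM factors, quasi-likelihood test, Benjamini-Hochberg over all genes tested) in 1 fit of all 10 libraries. Limma (3.58.1) on the VST values and DESeq2 (1.42.0) were alternatives, beside other factors, filters, subsets of groups and left-out libraries. The edgeR, DESeq2 and limma tests were tried on simulated counts for tumors against P7 cerebella only, with limma there on log2 CPM. The other alternatives were not simulated. Single levels were compared by exact two-sided permutation tests. Levels are log2 CPM with a prior count of 2. A floor of 3 counts equals 0.304 to 0.737 CPM. Members and lists were chosen with earlier results of these data known. Named genes were the members, up to 4 genes of each list with the lowest p, defining markers and the 3 nearest genes (no Gm or Rik symbols). R 4.3.3 and Python 3.11.15 were used.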

Additional observations from a re-analysis of the deposited data

Results flagged for a closer look

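In 4 cases 1 tumor lay so far from the other tumors that the gap to its nearest neighbour passed Dixon's 95% critical value for 4 samples. Chance alone gives such a gap in about 1 of 20 groups, and 10 genes were examined. Tumor 1 was low for Sox11 (4.87 log2 CPM) and Sox4 (4.04) and high for Sox10 (4.17), and tumor 4 was high for Sox3 (2.74).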

How the results depend on the processing

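Each difference was recomputed under 18 or 19 alternatives (Olig1 and Sox3 have fewer than 10 counts in some library and dropped out under that filter). Olig2, Sox8 and Sox9 against SHH MB, and Sox8 against P7 cerebella, passed in all of them. Against P7 cerebella the count of 3 members became 1 with only the 2 groups compared and ranged from 1 (without P7 library 2) to 5 (without tumor 1 or tumor 3) as single libraries were left out. Of all genes, 1874 were called in either direction in the main fit and 229 with only the 2 groups compared. The number was 195 without P7 library 2, 4704 without tumor 1 and 9932 without tumor 3. Between SHH MB and P7 cerebella the count of 1 became 6 with only the 2 groups compared and 0 with a replicate block, and was 0 to 1 with single libraries left out (0 without any 1 SHH MB or P7 library). Of all genes, 67 were called there in the main fit, 6883 with only the 2 groups compared and 19 with the block. Without any 1 SHH MB or P7 library 0 to 6 were called, so a member count of 0 says little about the members. Sox1 against P7 cerebella (0.96) turned to -0.20 by limma, to -1.16 with the replicate block and to -0.87 without tumor 4, with a range over left-out libraries of -0.87 to 1.22. Sox4 against P7 cerebella ranged from -0.29 to 0.19 as single libraries were left out, the latter without tumor 1, and was -0.57 with the replicate block. Sox3 against SHH MB (0.12) turned to -0.16 by limma, to -1.05 with the replicate block, to -1.08 without tumor 4 and to -0.02 without SHH MB library 3, with a range over left-out libraries of -1.08 to 0.38. None of these passed, and the causes were not tested. The replicate block also ended the calls of Sox9 against P7 cerebella, Olig1 against SHH MB and Olig2 between SHH MB and P7 cerebella. It called Sox1 against SHH MB (-3.29). Only tumor 4 has replicate number 4, so the block gave it a term of its own. Tumor 4 then adds nothing to the group differences, and the block is not independent of the fit without tumor 4. Equal replicate numbers did not pair the libraries (correlations of same-numbered libraries from -0.28 to 0.16). The median of all genes against P7 cerebella was -0.05, -0.03 with RLE factors, and -0.26 to -0.23 with DESeq2, limma, no filter or without tumor 1. Low counts limit Sox3 in all groups and Olig2 in the tumors.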
